A study of Homo sapiens with 4 samples.

Results

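The 948 regions described here are places on chromosomes 1 to 22 where both untreated BCPAP libraries had a strong ATAC-seq peak and neither library of cells treated with 5-azacytidine had any. BCPAP is an established human thyroid cancer cell line. The 2 groups were BCPAP cells treated with 5-azacytidine (2 libraries) and untreated BCPAP cells (2 libraries), and the labels give no dose, no duration and no separate cultures. The design text states that the treatment was used to see which regions change most in accessibility when DNA methylation is removed. Overlapping peaks (1 bp or more) from the 4 lists were joined, which gave 366095 autosomal regions. The sites were selected on summit coverage and on peak presence: they are those with a summit coverage of at least 10 reads in both untreated lists and no peak in either 5-azacytidine list. Summit coverage is the number of reads over the highest point of a peak, as recovered from the authors' fold enrichment. Their loss is a description of that choice, not a tested result.

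ATAC-seq uses a transposase that cuts and tags DNA where it is not wrapped around nucleosomes, so its peaks mark promoters, enhancers and other regulatory elements. 5-Azacytidine is a cytidine analogue that is built into nucleic acids and traps DNA methyltransferases, so that methylation is lost as cells divide. Removal of methylation is best known for opening silenced promoters and repeats, and a site that closes is the opposite of that textbook effect. The genes and the sequence at these sites were not analysed here, since the files are on the hg19 build and the gene tables used here are on GRCh38. The thyroid identity of the cells was not checked against marker genes for the same reason.

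The lists held 254980 and 239875 autosomal peaks in 5-azacytidine replicates 1 and 2, against 216020 and 218581 in untreated replicates 1 and 2. The labels name 2 Gb of sequence per sample, but read totals are unknown, and the lowest summit coverage listed was 4 in each library. A site with a peak in all 4 lists is called a shared site below, and there were 103006 of them. Their median coverage was 11 and 16 reads in 5-azacytidine replicates 1 and 2, against 23 and 18 in untreated replicates 1 and 2. The lowest of the 4 medians was that of 5-azacytidine replicate 1.

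The strong lost sites made up 0.259% of all autosomal regions. They were 1.17% of the 81267 regions that reached a coverage of 10 in both untreated lists. The mirror class, strong sites gained after 5-azacytidine, held 512 regions, or 0.14% of all regions and 0.847% of the 60453 regions at 10 or more reads in both treated lists. Without the coverage threshold the order of the counts turned, with 12191 regions lost and 15485 gained. Strong regions shared by 1 treated and 1 untreated library, and absent from the other 2, numbered 35 to 282 in the 4 possible pairings. The largest of these, with 282, was the pairing of 5-azacytidine replicate 2 and untreated replicate 1, so the class that lacked a peak in treated replicate 1 and untreated replicate 2 was the fullest. The count of lost sites depends on the condition each library adds. Leaving out 5-azacytidine replicate 1 gave 2134 and leaving out its replicate 2 gave 4988. Leaving out an untreated library gave 2310 for replicate 1 and 5128 for replicate 2, and each rise follows from dropping a condition. No test was made of single regions, and an exact permutation of 2 libraries against 2 cannot go below p = 0.333.

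Most of the sites were only moderately strong. They had no treated peak, against 10 to 43 reads in untreated replicate 1 (median 13) and 10 to 30 reads in untreated replicate 2 (median 12). The lower of the 2 untreated values was 10 to 12 at 693 sites (73.1%), at least 15 at 116 sites and at least 20 at 21 sites. Replicate 1 was the higher untreated library at 553 sites, replicate 2 at 263, and both were equal at 132. Just inside the threshold, 337 sites had a lower value of 10. Just outside it, 585 lost regions had a lower value of 9, with medians of 10 and 9 reads in untreated replicates 1 and 2. Within their own lists, ranked by the authors' p-value, the sites lay between the top 12.8% and the top 55.5% in untreated replicate 1 and between the top 15.4% and 48.0% in untreated replicate 2. The upper end of each list held none of them.

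**Figure D1:**
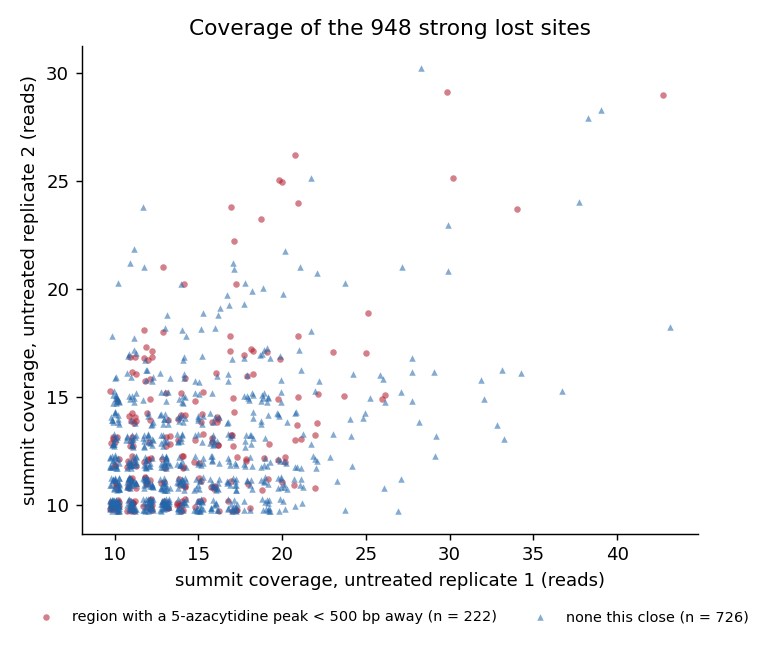
Summit coverage in reads of each of the 948 strong lost sites in untreated replicate 1 (x axis) and untreated replicate 2 (y axis), with a small random shift so that equal values do not hide each other. Circles mark the 222 sites with a region holding a 5-azacytidine peak closer than 500 bp and triangles the other 726, and most points lie near the threshold of 10 in both libraries.

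The share of untreated regions without a treated peak was lower at higher untreated coverage. Both quantities chose the sites, so this describes the choice and was not tested. Among regions whose lower untreated coverage was 10, no treated peak was found at 337 of 5661, or 5.95% (95% Wilson interval 5.37 to 6.60). The share was 3.05% (2.58 to 3.61) at a lower value of 12, 0.959% (0.746 to 1.23) at 15 to 16 and 0.152% (0.0920 to 0.250) at 20 to 24. Of the 28044 regions with at least 30 reads in both untreated lists, 0 lacked a treated peak in both. The upper limit of that share, 0.0107%, is 3 counts over the number of regions and not a Wilson limit. These limits and intervals describe counting error alone, since regions do not stand for replicates. Of regions strong in both treated lists, 3.13% (2.73 to 3.59) had no untreated peak at a lower treated coverage of 10 and 0.146% (0.0836 to 0.255) at 20 to 24. The declines of the 2 classes were not compared by a test.

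The 2 treated libraries contributed unequally. Of the regions with a lower untreated coverage of 10, 21.9% had no peak in 5-azacytidine replicate 1 and 11.3% had none in 5-azacytidine replicate 2. Over all 81267 strong untreated regions, 3802 lacked a peak in treated replicate 1 alone, 1061 lacked one in treated replicate 2 alone and 948 lacked both. The low coverage of treated replicate 1 moves with this difference, and its part in the loss was not tested.

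**Figure D2:**
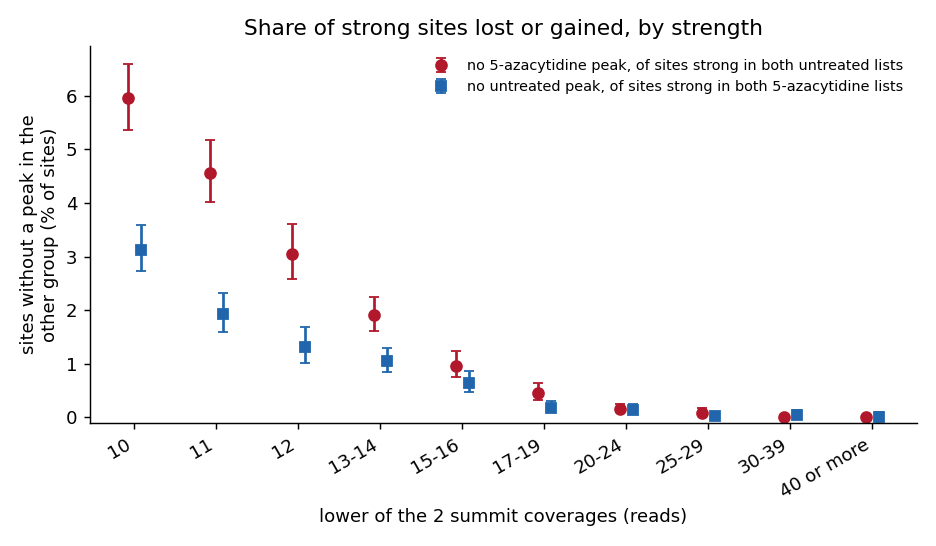
Share of strong regions without a peak in the other group (y axis, percent of regions) by the lower of the 2 summit coverages in reads (x axis). Circles are regions strong in both untreated lists without a 5-azacytidine peak, squares are regions strong in both 5-azacytidine lists without an untreated peak, and bars are 95% Wilson intervals. The lost share was 5.95% at a coverage of 10 and 0.152% at 20 to 24.

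The peaks of the 2 untreated libraries lay close together at these sites. The summits of the 2 untreated libraries lay 21 bp apart in the median site, and within 50 bp at 778 of 948 sites (82.1%). In lost regions below the coverage threshold the median distance was 45 bp, and 54.1% lay within 50 bp. For sites of the same strength that kept a peak in both treated lists (lower untreated coverage 10 to 16, 23406 sites) the median was 26 bp and 72.5% lay within 50 bp. The lost sites of that strength had a median of 21 bp and 81.3% within 50 bp. Kept regions were also joined through treated peaks, and their summits lay up to 4374 bp apart, against 539 bp in the lost sites. The joining thus has a part in this comparison, which was not tested. At 928 sites each untreated list had exactly 1 peak. The joined regions were 500 to 1427 bp long, with a median of 521 bp, close to the 500 bp to which the authors had set each peak.

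The strongest lost sites fell into 3 kinds, and the first kind lay directly beside accessible chromatin that persisted. Of the 25 sites with the highest lower untreated coverage, 10 had a region with a 5-azacytidine peak closer than 500 bp, and at 9 of these it belonged to a shared site. On chromosome 1 the region 94572220 to 94572745 had no treated peak, against 43 and 29 reads in untreated replicates 1 and 2. A shared site began 5 bp away, with 16 and 24 reads in 5-azacytidine replicates 1 and 2 and 33 and 27 reads in untreated replicates 1 and 2. In both untreated lists the lost summit and that neighbour were summits of 1 original peak, so a second summit of a continuing peak was missing there.

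The same arrangement held at other strong sites. On chromosome 8, the region 98102187 to 98102694 had no treated peak, against 30 and 29 reads in untreated replicates 1 and 2, and lay 8 bp from a shared site. That neighbour had 16 and 34 reads in treated replicates 1 and 2 and 58 and 48 in untreated replicates 1 and 2. Both treated lists skip a peak number between their listed peaks on either side of this place. That leaves room for a peak that was called and not listed, anywhere between those listed peaks. A skipped or missing number has this meaning throughout. On chromosome 22, the region 42017514 to 42018025 reached 21 and 26 reads in untreated replicates 1 and 2, 42 bp from a shared site with 11 and 18 reads in treated and 54 and 43 reads in untreated replicates 1 and 2. On chromosome 13, the region 24463911 to 24464423 reached 25 and 19 reads in untreated replicates 1 and 2. Its neighbour at 46 bp had 11 and 31 reads in treated replicates 1 and 2 and 67 and 44 in untreated replicates 1 and 2.

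Others of this kind were on chromosomes 3, 1, 6 and 5. On chromosome 3, the region 48646396 to 48646913 (20 and 25 reads in untreated replicates 1 and 2) lay 5 bp from a shared site of 36 and 66 reads in treated and 89 and 74 reads in untreated replicates 1 and 2. The region 1051986 to 1052535 on chromosome 1 (19 and 23 reads in untreated replicates 1 and 2) lay 73 bp from the strongest neighbour of the 25, with 54 and 86 reads in treated and 136 and 117 reads in untreated replicates 1 and 2. The region 76183295 to 76183804 on chromosome 3 (34 and 24 reads) lay 12 bp from a shared site, and a peak number was missing from treated replicate 1 there. On chromosome 6 the region 166075536 to 166076042 (30 and 25 reads) lay 16 bp from one. There treated replicate 2 skips a peak number, and the original span of a peak of that library, from its start to its last listed interval, covered the site. Such a span of treated replicate 2 also covered the chromosome 3 region at 48646396. On chromosome 5, the region 172593215 to 172593735 (21 and 24 reads) differed from the rest. Its neighbouring region, at 166 bp, was weak in every library, with 5 and 6 reads in treated and 4 and 6 reads in untreated replicates 1 and 2, and was not part of the same original peak. The nearest peaks of treated replicates 1 and 2 within it were 584 and 695 bp away. On chromosome 14 the region 71062430 to 71062963 (20 and 25 reads) had a peak of treated replicate 2 alone at 59 bp, with 6 reads, and its nearest shared site at 4201 bp. At 8 of the 9 sites beside a shared site, site and neighbour were summits of 1 original peak in at least 1 untreated list.

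The second kind was made up of 12 of the 25 strongest. They had no region with a treated peak closer than 500 bp and no missing peak number in the treated lists. The strongest was chromosome 1, 221875044 to 221875560, without a treated peak, against 38 and 28 reads in untreated replicates 1 and 2. Fold enrichment, as the authors gave it, was 20.4 and 15.3 in untreated replicates 1 and 2. The nearest peaks of 5-azacytidine replicates 1 and 2 were 3475 and 3163 bp away and had 6 reads each, and the nearest shared site was 9892 bp away. On chromosome 10, the region 63587931 to 63588439 had no treated peak, against 38 and 24 reads in untreated replicates 1 and 2, and its nearest treated peak was 6332 bp away. The region 97393305 to 97393816 on chromosome 4 was the most isolated of the 25. It reached 22 and 25 reads in untreated replicates 1 and 2, the nearest treated peak was 64056 bp away and the nearest shared site 176286 bp away.

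The other strong sites of this kind varied in their surroundings, and not all were isolated. On chromosome 17, the region 67963941 to 67964454 had 43 and 18 reads in untreated replicates 1 and 2, the most unequal pair of the 25, with the nearest treated peak at 19949 bp. The region 19045695 to 19046195 on the same chromosome had 27 and 21 reads, 1307 bp from a shared site of 11 and 21 reads in treated and 35 and 27 reads in untreated replicates 1 and 2. On chromosome 7, the region 135017920 to 135018426 had 30 and 21 reads in untreated replicates 1 and 2, 1385 bp from a shared site. On chromosome 6 there were 2, at 122243280 to 122243814 (22 and 21 reads) and at 145257855 to 145258363 (19 and 20 reads). The first lay 2316 bp from a shared site of 20 and 51 reads in treated and 73 and 37 reads in untreated replicates 1 and 2, and the second lay 13091 bp from a shared site. Chromosome 4 from 151130509 to 151131008 had 21 reads in each untreated library with identical summits, 14953 bp from a shared site. Chromosome 3 from 149074425 to 149074950 (24 and 20 reads), chromosome 12 from 131232608 to 131233130 (20 and 22 reads) and chromosome 14 from 76182232 to 76183235 (20 and 20 reads) lay 3703, 13055 and 3544 bp from one.

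The last kind, 3 of the 25, had no region with a treated peak closer than 500 bp. Treated replicate 2 skipped a peak number there between its listed peaks on either side. These were chromosome 10 from 90025717 to 90026226 (39 and 28 reads in untreated replicates 1 and 2), chromosome 6 from 33895270 to 33895770 (28 and 30 reads) and chromosome 1 from 222355894 to 222356410 (30 and 23 reads). The nearest listed peak of treated replicate 2 was 4395, 15979 and 961 bp away from them, in that order. The lists do not show what the skipped numbers were or where between the listed peaks they fell.

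Over all 948 sites the same kinds recurred in other proportions. A region with a 5-azacytidine peak lay closer than 500 bp at 222 sites (23.4%). The interval of the peak itself was this close at 208 of them, in 5-azacytidine replicate 1 at 166, in replicate 2 at 162 and in both at 120. At 126 of the 222 the nearby region was a shared site. The share of sites with such a region was 21.6% (18.7 to 24.9) at a lower untreated coverage of 10 to 12, 24.6% (19.2 to 31.1) at 13 to 16 and 41.1% (29.2 to 54.1) at 17 or more. The share was thus highest among the strongest lost sites, a group of 56. No such share is given here for kept sites of the same strength or for all regions, so it is not a trait of loss. At 247 sites (26.1%) at least 1 treated list skips a peak number between its listed peaks on either side. That share was 26.1% in lost regions below the coverage threshold and 27.0% for the untreated lists at strong gained sites. At 17 sites the original span of a treated peak covered the place. Leaving out all of these left 558 sites that had no region with a treated peak closer than 500 bp, no missing number and no covering span. Their median coverage was 13.5 and 12 reads in untreated replicates 1 and 2.

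The second question was how the sites are spaced from shared sites. The median gap from a strong lost site to the nearest shared site was 5648 bp, with quartiles of 1783 and 15061 bp. Strong gained sites lay nearer, with a median of 2760 bp and a lower quartile of 249 bp. For all other regions the median was 4216 bp, and for sites of the same strength that kept their peaks (lower untreated coverage 10 to 16) it was 3604 bp to the next shared site. Lost sites of that strength had a median of 5802 bp. The lost median was thus the larger one in these lists, as a description at this setting. The median over all lost sites was 603 bp when peaks had to overlap by at least 50%, 9176 bp at a −log10 q of at least 5, 3563 bp without 5-azacytidine replicate 1 and 3578 bp without untreated replicate 1. Each of these settings also redefined the shared sites, which without 1 library needed a peak only in the remaining lists. These medians are therefore not gaps to the same set of sites. The kept sites were not measured again at those settings. A shared site lay closer than 500 bp at 126 lost sites, or 13.3% (95% Wilson interval 11.3 to 15.6), against 31.6% (27.8 to 35.8) of gained sites and 19.8% (19.3 to 20.3) of kept sites of that strength. The gap was 500 bp to 5 kb at 322 sites (34.0%), 5 to 50 kb at 457 (48.2%) and 50 kb or more at 43 (4.54%). The nearest shared site was on the left at 466 sites and on the right at 482.

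**Figure D3:**
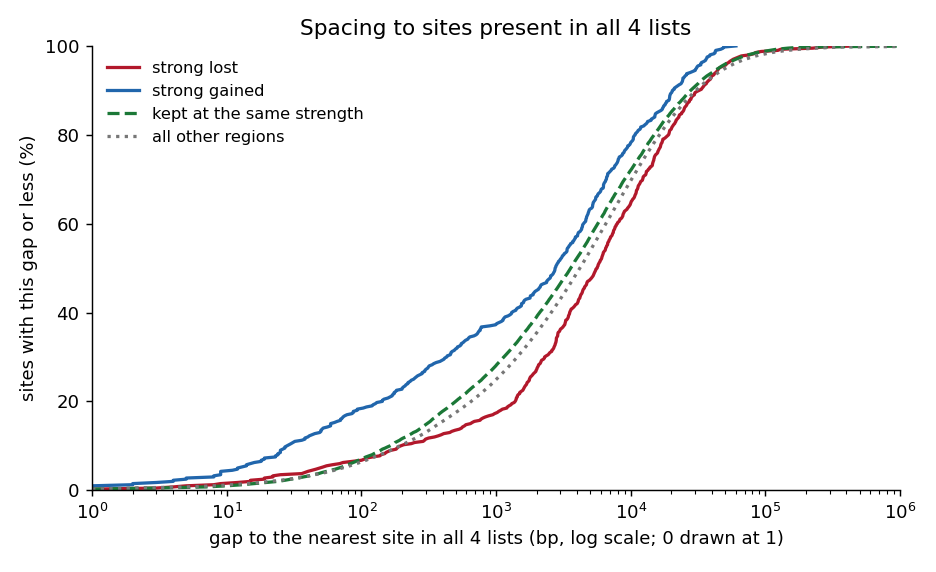
Cumulative share of sites (y axis, percent) by the gap in bp to the nearest site in all 4 lists (x axis, log scale), for strong lost sites, strong gained sites, sites of the same strength that kept a peak in both 5-azacytidine lists, and all other regions. Between its quartiles the lost curve lies to the right of the other 3, with a median of 5648 bp against 2760 bp for gained sites.

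The extremes of this spacing were ordinary in coverage. The nearest was on chromosome 13, 25875945 to 25876464, with 15 and 10 reads in untreated replicates 1 and 2, touching a shared site at a gap of 0 bp. Gaps of 3 bp were found on chromosome 4 at 170541948 to 170542472 (11 and 14 reads in untreated replicates 1 and 2) and on chromosome 7 at 75161354 to 75161880 (14 and 14 reads). Gaps of 4 bp were found on chromosome 3 at 101586195 to 101587293 (22 and 11 reads) and on chromosome 14 at 100883078 to 100883736 (11 and 16 reads). The shared site next to the chromosome 4 region had 23 and 39 reads in treated and 111 and 62 reads in untreated replicates 1 and 2.

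The most remote site was on chromosome 9 from 40161789 to 40162309, with 11 reads in each untreated library and 471049 bp to the nearest shared site. It was followed by chromosome 8 from 7770913 to 7771422 (10 reads in each untreated library, 374322 bp) and chromosome 1 from 102565339 to 102565984 (19 and 15 reads, 360903 bp). Chromosome 4 from 136760021 to 136760522 (11 and 17 reads in untreated replicates 1 and 2) and chromosome 15 from 30691115 to 30691616 (19 and 12 reads) lay 264127 and 226081 bp away. None of these 5 had a shared site within 50 kb, as was the case for 43 of the 948 sites (4.54%) and for 5.21% of all other regions. Around the median lost site there were 5 shared sites within 50 kb on either side, against 8 around the median gained site and 6 around the median of all other regions.

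The coverage of shared sites near the lost sites was not itself part of the rule, and it was compared between groups. The closest of them are not independent of the choice, as given below. At the 1848 shared sites next to a lost site on either side, the median coverage was 11 and 16 reads in 5-azacytidine replicates 1 and 2, against 23 and 17 in untreated replicates 1 and 2. On the log2 scale, after each library's median over all shared sites was taken off, the values were 0.00 and 0.00 in the treated libraries and 0.00 and −0.08 in the untreated libraries. The difference was 0.04 (exact two-sided permutation test over 4 libraries, p = 1), and it turned to between −0.12 and −0.08 when single libraries were left out, so no direction can be read from it. Coverage is in whole reads, which makes these medians coarse. Beside strong gained sites the values were 0.35 and 0.32 in the treated libraries and 0.06 and 0.08 in the untreated libraries, a difference of 0.27 (exact two-sided permutation test, p = 0.333, the smallest that 2 libraries against 2 allow).

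The picture changed with distance. Coverage was scaled to each library's median, and a shared site was counted as lower when both treated libraries lay below both untreated ones. That held for 22.3% of all shared sites, and the reverse for 27.2%. Among shared sites closer than 500 bp to a lost site, 52 of 126 were lower, or 41.3% (95% Wilson interval 33.1 to 50), and 13 were higher (10.3%, 6.13 to 16.9). At a gap of 500 bp to 5 kb, 91 of 322 were lower (28.3%, 23.6 to 33.4) and 76 higher (23.6%). At 5 to 50 kb the shares were 22.7% lower and 24% higher, near those of all shared sites. The share of lower sites thus stood furthest above that of all shared sites in the closest of the 3 ranges. In that range the log2 difference was −0.10 (exact two-sided permutation test, p = 0.333). Of those 126, 67 belonged to the same original peak as the lost site in at least 1 untreated list, and 35 of these were lower (52.2%, 40.5 to 63.7). Of the other 59, 17 were lower (28.8%, 18.8 to 41.4). The 67 belong to peaks that hold a site chosen for having no treated peak, so their lower coverage is not independent of the choice. The values of the closest range, with the permutation test there, are a description for that reason. The closest neighbours were also the strongest, with a median of 14.5 and 21 reads in treated and 33 and 25 reads in untreated replicates 1 and 2, and the part of coverage in this difference was not tested.

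A further question was whether the sites form clusters. At the main setting most were single: the median gap to the next strong lost site was 787804 bp, and 847 had none within 100 kb. The 101 sites that did (10.7%, 95% Wilson interval 8.85 to 12.8) made up 43 pairs and 5 runs of 3. Of the strong gained sites, 115 of 512 had another within 100 kb (22.5%, 19.1 to 26.3). No such share is given for kept sites of the same strength or for all regions, so neither share is read as a trait of loss or gain. Only 8 lost sites were within 10 kb of another, and the closest gap was 57 bp. A strong gained site lay within 100 kb of 30 lost sites (3.16%) and within 10 kb of 4. More sites on the same chromosomes lie closer together, so the share within 100 kb moves with their number and is no measure of clustering by itself. It was 1.72% among the 116 sites with a coverage of at least 15 and 23.2% among 2498 with at least 8. It was 56.9% among the 7268 sites at a −log10 q of at least 5, where most were therefore not single, and 34.6% with the 50% overlap. Without 1 library it was 22.6% (5-azacytidine replicate 1), 42.6% (5-azacytidine replicate 2), 22.9% (untreated replicate 1) and 40.3% (untreated replicate 2).

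The tightest run was on chromosome 19 from 6941699 to 6979763, a stretch of 38.1 kb. Its sites had no treated peak, against 15 and 11, 10 and 12, and 15 and 12 reads in untreated replicates 1 and 2. The 2 shared sites between them had medians of 22.5 and 27 reads in treated and 51.5 and 40.5 reads in untreated replicates 1 and 2. Of the 8 regions in the stretch, 3 were strong lost sites and 1 a weaker lost region, and none was gained. Treated replicate 1 skips a peak number at the last site. The same window of 1 Mb held another 2 strong lost sites, at 6064218 to 6064741 (29 and 16 reads in untreated replicates 1 and 2) and 6504764 to 6505270 (19 and 17 reads).

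The run on chromosome 3 from 149034167 to 149074950 (40.8 kb) held sites of 11 and 11, 13 and 14, and 24 and 20 reads in untreated replicates 1 and 2. It had 5 shared sites, with medians of 10 and 18 reads in treated and 18 and 19 reads in untreated replicates 1 and 2, and 1 gained region. On chromosome 11, the run from 44230641 to 44280234 (49.6 kb) held sites of 10 and 11, 16 and 11, and 32 and 16 reads in untreated replicates 1 and 2. The 2 shared sites in it had medians of 13 and 18 reads in treated and 11.5 and 12.5 reads in untreated replicates 1 and 2. There the treated reads were not the lower ones. The run medians are unscaled, and over all shared sites the medians were 11 and 16 reads in treated and 23 and 18 in untreated replicates 1 and 2. A lower treated median in a run is therefore not read as a local change.

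Chromosome 8 held the other 2 runs. From 96149099 to 96261333 (112.2 kb) the sites had 15 and 15, 19 and 13, and 11 and 10 reads in untreated replicates 1 and 2, and treated replicate 1 skips a peak number at the last 2. A region with a treated peak began 143 bp from the first. From 101998499 to 102153283 (154.8 kb) the sites had 12 and 13, 15 and 11, and 17 and 10 reads in untreated replicates 1 and 2. Both treated lists skip a peak number at the last site. This was the run with the most other open chromatin, with 14 shared and 2 gained regions among 33.

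Windows of 1 Mb show the same scatter. Of 749 windows with a strong lost site, 577 held 1, 148 held 2, 22 held 3, 1 held 4 and 1 held 5. The window with 4 was on chromosome 9 between 72 and 73 Mb and had no strong gained site. Its sites began at 72086274, 72117859, 72534322 and 72586531 and had 10 and 12, 10 and 11, 12 and 12, and 14 and 10 reads in untreated replicates 1 and 2. The window on chromosome 19 described above held the 5, beside 2 strong gained sites.

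**Figure D4:**
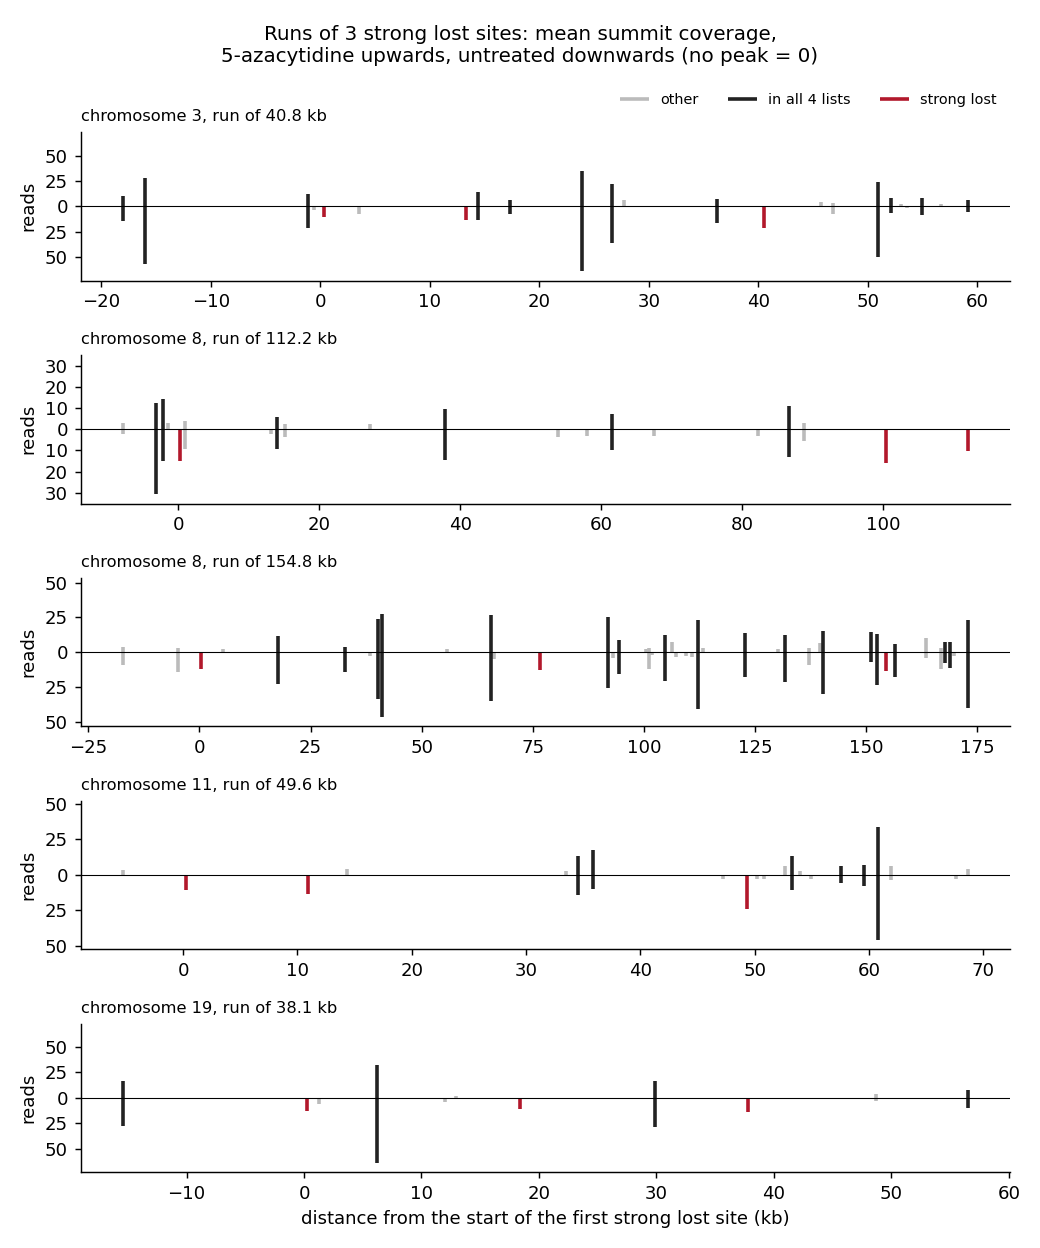
The 5 runs of 3 strong lost sites, with 20 kb on either side: each line is a region, with its mean summit coverage in reads over the 2 5-azacytidine lists upwards and over the 2 untreated lists downwards (a list without a peak counts as 0), by distance in kb from the first lost site (x axis). Strong lost sites point downwards only, and shared sites, with lines in both directions, lie elsewhere in each stretch drawn.

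The sites were spread over all 22 autosomes but not evenly. As a share of regions at 10 or more reads in both untreated lists, they were most frequent on chromosome 4, with 71 sites or 1.74% (95% Wilson interval 1.38 to 2.19). Chromosome 7 had 1.56% (1.17 to 2.07), chromosome 9 had 1.55% (1.18 to 2.03) and chromosome 8 had 1.53% (1.14 to 2.05). The share was lowest on chromosome 11, with 31 sites or 0.605% (0.426 to 0.857), and on chromosome 20, with 19 sites or 0.671% (0.430 to 1.05). The intervals of chromosomes 4 and 11 do not overlap, but these are the highest and lowest of the 22 shares and were picked for that. Those of most chromosomes include 1.17%, the share over all autosomes. The intervals describe counting error alone. The lost share also fell with untreated coverage, and shares by chromosome at equal coverage are not given here.

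Strong gained sites had another order. Chromosome 2 had 85 lost and 18 gained sites, and chromosome 8 had 44 lost and 8 gained. As shares of the regions strong in both lists of the group, these were 1.33% and 0.402%, and 1.53% and 0.446%. Over all autosomes the lost and gained shares were 1.17% and 0.847%. In counts, 4 chromosomes had more gained than lost sites: chromosome 11 with 31 lost and 44 gained, chromosome 16 with 18 and 25, chromosome 19 with 23 and 29, and chromosome 20 with 19 and 25. Their lost and gained shares were 0.605% and 1.03%, 0.812% and 1.62%, 0.789% and 1.30%, and 0.671% and 1.03%. On chromosome 17, with 32 lost and 25 gained sites, the gained share was also the higher one (0.927% against 0.889%). A smaller share of lost sites than of all regions strong in both untreated lists lay near the ends of chromosomes. Within 5 Mb of the first or last peak of a chromosome lay 66 lost sites (6.96%, 5.51 to 8.76). That compares with 9.82% of all regions strong in both untreated lists and 12.7% of all regions. Of the gained sites, 139 lay there (27.1%, 23.5 to 31.2). The share for regions strong in both treated lists is not given here.

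**Figure D5:**
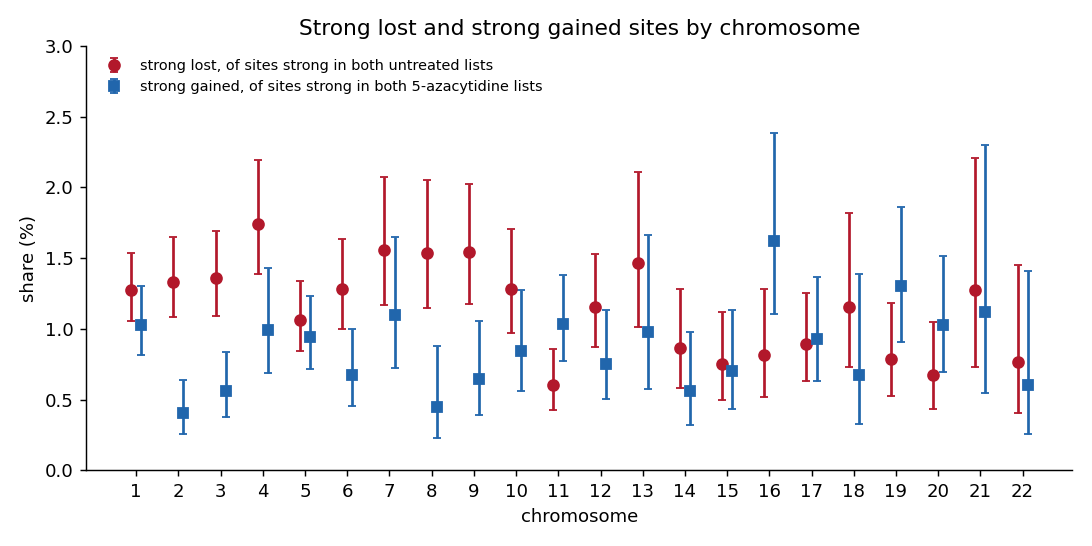
Share in percent (y axis) by chromosome (x axis) of strong lost sites among regions at 10 or more reads in both untreated lists (circles) and of strong gained sites among regions with that coverage in both 5-azacytidine lists (squares), with 95% Wilson intervals. The lost share ran between 0.605% on chromosome 11 and 1.74% on chromosome 4.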

How the data were processed

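ATAC-seq was available for 2 BCPAP libraries treated with 5-azacytidine and 2 untreated ones, with 1 deposited peak list each on hg19. Per the submitters' processing notes, the tools were Trimmomatic, Bowtie2, Picard and MACS2. For versions, settings, filters and any shift for the transposase, the sources used here give nothing. Each list was called per library and its peaks were set to 500 bp by the authors, as the deposited intervals show. Each deposited peak has a fold enrichment, a −log10 p and a −log10 q from the authors. The peak score, which the authors scaled to a total of 1000000, was not used, and the deposited summit offset served only to find where an original peak had begun. Every fold was a whole multiple of 1 step within 0.01 of a step. Summit coverage was 5 times the fold over the list's lowest fold, rounded, less 1.

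Peaks sharing at least 1 bp were merged on chromosomes 1 to 22, and gaps are edge to edge. Runs join sites no more than 100 kb apart. Sites named are the 25 with the highest lower untreated coverage, the runs of 3 or more, the fullest window, and the 5 nearest to and 5 farthest from a shared site. The window with 4 sites was named after its values were seen. The members, lists and settings were chosen with earlier results of these data known. Replicate numbers mark no shared batch in the labels, and as no label tells of separate cultures, replicate spread may be technical only. The planned comparisons of genes and sequence need positions on hg19 and were not run, nor was the gene rule of the site names. The merging was run on simulated lists, where 100% of 1046 lost sites were recovered. Those sites lay too far apart to join and all reached the coverage threshold, so this outcome was fixed in advance. It checks that the steps run and says nothing about places where peaks crowd together. The work used pandas 2.3.3 and numpy 2.4.6 for tables, scipy 1.17.1 for tests and matplotlib 3.10.9 for plots, under Python 3.11.15.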

Additional observations from a re-analysis of the deposited data

How the results depend on the processing

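The number of sites, 948, was within 1.5 times of itself under 5 of 13 alternatives. It was 2993 when peaks had to overlap by at least 50%, 7268 with a −log10 q of at least 5 in every list (where a weaker treated peak no longer counts), 2498 at a coverage of at least 8 and 116 at 15, and 2134 to 5128 without 1 library. The median gap to a shared site, 5648 bp, became 6495 bp with a merging distance of 150 bp, 603 bp with the 50% overlap, 9176 bp at the stricter q, 4378 bp at a coverage of at least 15, 6355 bp with equal numbers of peaks, 7452 bp without sites closer than 500 bp to a region with a treated peak (a setting added after seeing the data) and 3563 to 6236 bp without 1 library. Without 1 library, a shared site was one with a peak in all remaining lists, for this gap and for the log2 difference below. The share within 100 kb of another, 10.7%, became 34.6%, 56.9%, 23.2%, 1.72% and 14.7% with the 50% overlap, the stricter q, a coverage of 8, a coverage of 15 and equal numbers, and 22.6% to 42.6% without 1 library. This share moves with the number of sites in each setting.

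The log2 difference at neighbouring shared sites, 0.04, was too small to hold a sign. It was −0.0053 with a merging distance of 150 bp, with a coverage of at least 8 and without sites with a missing peak number. The value was the same with the coverage threshold scaled to each untreated library, a setting that left the treated libraries as they were. It was −0.065 with the 50% overlap, −0.027 at the stricter q, −0.023 at a coverage of 15, −0.029 with equal numbers, −0.074 without sites beside a treated peak, and −0.12 to −0.082 without 1 library. Without scaling it was −0.58, since the treated libraries, replicate 1 above all, had lower coverage at shared sites. With the replicate block it was 0.041 by construction, since the mean of the 2 pair differences equals the difference of the group means (exact permutation of signs over 2 pairs, p = 1). Over shared sites the replicate difference in treated libraries had a correlation of −0.052 with that in untreated libraries. With 1 replicate difference per group, this cannot decide whether libraries of the same number shared a batch. The alternative for assigning nearby genes was not run, as no gene positions on hg19 were used. Weak peaks limit all counts: no peak below a coverage of 4 is listed, so a lost site is one without a listed peak and not one without reads.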

Other observations

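Chromosome X, which the choice of autosomes leaves out, was searched by the same rule and held 23 strong lost and 7 strong gained sites. The lost sites were 1.20% (95% Wilson interval 0.798 to 1.79) of its 1924 regions at 10 or more reads in both untreated lists, next to 1.17% on the autosomes. Their median gap to a shared site was 4014 bp, and 4 of them had a region with a 5-azacytidine peak closer than 500 bp. The strongest was at 103588250 to 103588836, with no treated peak, against 23 and 17 reads in untreated replicates 1 and 2, and a region with a treated peak 575 bp away. The next was at 77786804 to 77787331, with 20 and 16 reads in untreated replicates 1 and 2 and 3531 bp to both the nearest treated peak and the nearest shared site.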
